A study of Mus musculus with 12 samples.

Results

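The 9 genes described here encode the enzymes and essential partners that write, maintain and remove cytosine methylation in mouse cells: Dnmt1, Dnmt3a, Dnmt3b, Uhrf1, Uhrf2, Hells, Tet1, Tet2 and Tet3. They were chosen by symbol and matched to the Ensembl identifiers of the deposited table, which holds 37310 genes, and all 9 were found. All 9 also passed the filter on low counts, among 16630 genes tested. Total RNA was sequenced from lines derived from mouse embryonic fibroblasts (MEF), in 4 groups of 3 libraries. The PMA-treated knockout group and the untreated knockout group came from a line labelled as lacking HP1γ, the protein of the Cbx3 gene, called KO here. The PMA-treated and the untreated HPg groups came from the line in which HP1γ was put back. PMA, phorbol 12-myristate 13-acetate, mimics diacylglycerol and so switches on protein kinase C, and was given at 100 nM for 30 min to nearly confluent cells. It was dissolved in DMSO, and whether untreated cells received DMSO is not stated in the labels. All groups therefore share the cell background, and HPg cells are rescued rather than wild-type cells. With 1 line per genotype, line and genotype cannot be told apart, and each p-value covers only how cultures of the 2 lines vary.

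DNA methylation in mammals is copied after replication by DNMT1, which UHRF1 recruits to hemimethylated CpG sites and which the chromatin remodeller HELLS assists in compact chromatin. DNMT3A and DNMT3B set new methylation, and the TET dioxygenases oxidise 5-methylcytosine, after which the glycosylase TDG can remove the oxidised base. HP1 proteins bind methylated histone H3, a mark that UHRF1 also reads, and fibroblasts in culture are known for maintenance methylation with little of the germ-cell programme of new methylation.

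Total counts per library ranged from 111458145 to 159929347. Counts were found for 17822 genes in HPg library 2, and for 19759 to 20656 genes in each of the rest. Cbx3, which would check the genotype labels, was not called between the lines, with a log2 fold change of KO against HPg of -0.08 without PMA (edgeR quasi-likelihood test, adjusted p = 0.838) and -0.28 with PMA (adjusted p = 0.269). Its counts therefore do not check the labels, and KO stands for the label throughout. The 12 fibroblast markers summed to between 9891.0 and 17362.2 CPM in a library (read counts relative to the library total, scaled by TMM factors), most of it from genes such as Col1a1 and Vim. Thy1, also on that list, had at most 5 counts in a library, Lum averaged 0.0432 to 0.174 CPM in a group, and the other 10 were expressed in all groups. The 5 neural markers summed to 169.9 to 339.2 CPM, nearly all of it Map2, which averaged 193.3 to 243.9 CPM in a group. Tubb3 had no count in any library, and whether it was unexpressed or its reads were not counted cannot be told. The 7 pluripotent or germ cell markers summed to at most 0.105 CPM, none of them passed the filter, and 1 of them had no count in any library. In bulk RNA, fewer cells of a type and less RNA per cell cannot be told apart.

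The maintenance genes stood far above the genes for new methylation and for oxidation. Per kilobase of exon, over the 12 libraries, Uhrf1 averaged 51.6 CPM per kb (40.1 to 67.0), Dnmt1 30.3 (24.8 to 35.6), Uhrf2 15.3 (13.4 to 16.7) and Hells 10.7 (8.21 to 15.3). These levels lay at the percentiles 95.6, 91.4, 81.2 and 73.5 of the tested genes, whose median was 3.99 CPM per kb. Dnmt3a at 3.33 CPM per kb (2.40 to 5.10) and Tet3 at 3.19 (2.17 to 4.38) lay close to that median and overlapped each other. Below Tet3 without overlap, Tet2 averaged 1.48 CPM per kb (0.892 to 2.01) and Dnmt3b 0.951 (0.746 to 1.18), and these neighbours overlapped too. Tet1 was last at 0.0369 CPM per kb (0.0211 to 0.0884), at the percentile 5.98. Uhrf2 and Hells also touched, since the highest Hells library exceeded the lowest Uhrf2 library, whereas Uhrf1 and Dnmt1 did not overlap each other or any other of the 9.

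**Figure D1:**
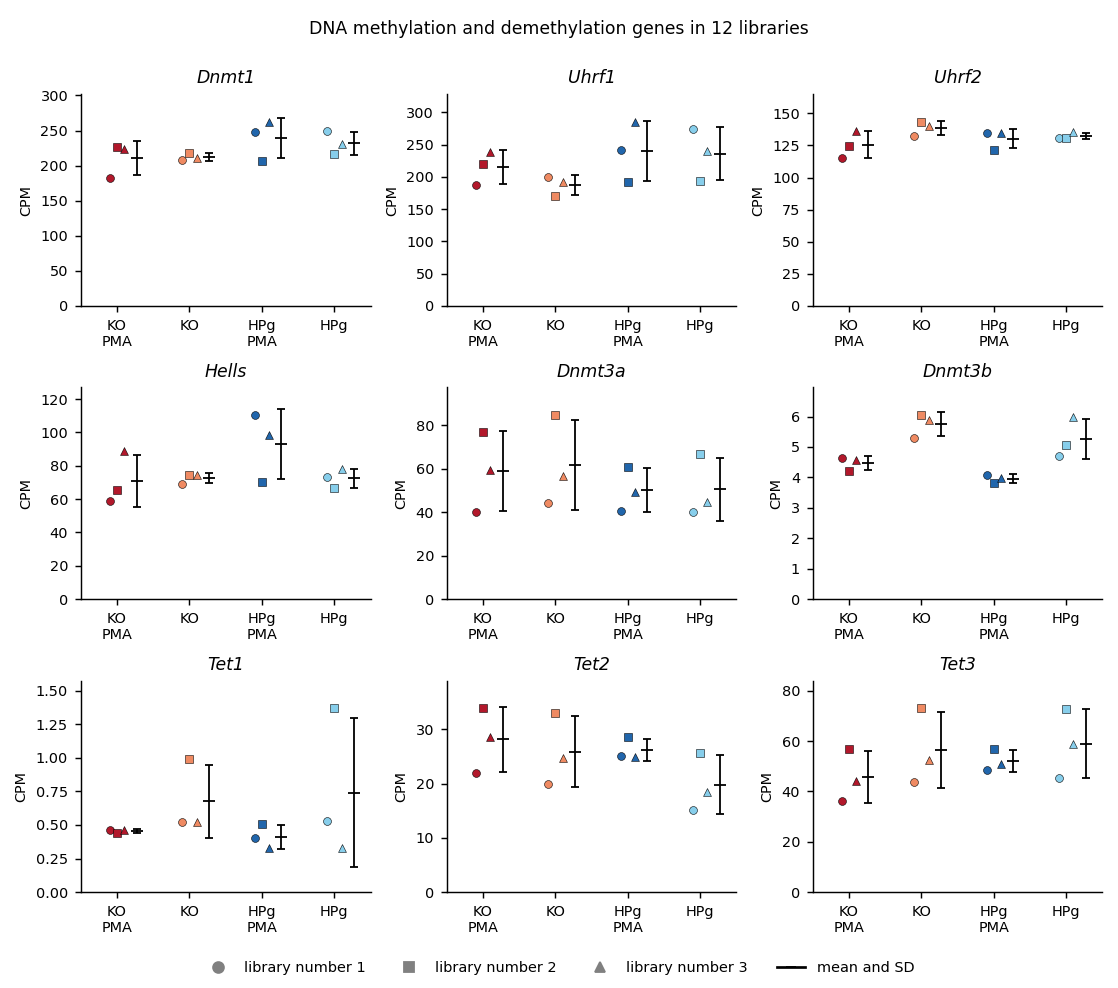
Expression (y axis, CPM) of the 9 genes in the 12 libraries, by group (x axis), with marker shapes for the library number and the mean ± SD (n = 3) beside each group. The Dnmt3b libraries under PMA sit below the untreated ones in both lines (4.20 to 4.65 against 5.30 to 6.05 CPM in KO, 3.81 to 4.09 against 4.71 to 5.98 CPM in HPg), while most other groups overlap.

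Comparing the groups asks whether these genes depend on the HP1γ state of the line and on the phorbol ester. None of the 9 was called by the edgeR quasi-likelihood test with Benjamini-Hochberg adjustment over all tested genes (adjusted p below 0.05) in any comparison. For KO against HPg without PMA, 0 of 9 were called and 0 had an unadjusted p below 0.05, where 1.32% of all tested genes were called. For KO PMA against HPg PMA, 0 of 9 were called and 1 had an unadjusted p below 0.05, against 2.47% called of all genes. With the line effect averaged over both PMA states, 0 of 9 were called and 0 had an unadjusted p below 0.05, although 10.4% of all genes were called. For PMA in KO cells the counts were 0 and 1, against 4.44% called of all genes, and for PMA in HPg cells they were 0 and 1, against 3.45%. The interaction of line and PMA called 0 of 9, with 0 at an unadjusted p below 0.05, and 0% of all genes. Of all 16630 tested genes, 2384 had an unadjusted p below 0.05 for KO against HPg, 3064 with PMA and 4320 averaged. For PMA these were 2639 in KO and 2889 in HPg cells, and for the interaction 328. DESeq2 called 0 of 9 in each of these 6 comparisons, where it called 4.66%, 7.12%, 15.8%, 7.69%, 7.29% and 0.00601% of all genes in the same order. The median log2 fold change of the 9 genes lay between -0.07 and 0.00, beside medians of -0.02 to 0.02 over all genes.

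Library numbers pair the samples across groups, and a fit with the number as a block called a few members. It called 1 of 9 for KO against HPg without PMA, where it called 12.5% of all genes. With the line effect averaged it called 2 of 9, where it called 29.3% of all genes, and for PMA in HPg cells it called 1 of 9, where it called 14.8%. It called 0 of 9 for KO PMA against HPg PMA (18.6% of all genes) and 0 of 9 for PMA in KO cells (13.4%). In each of these comparisons the share of members called was below that of all genes. Each of the genes concerned, Tet2 and Dnmt3a, is given with its values below.

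**Figure D2:**
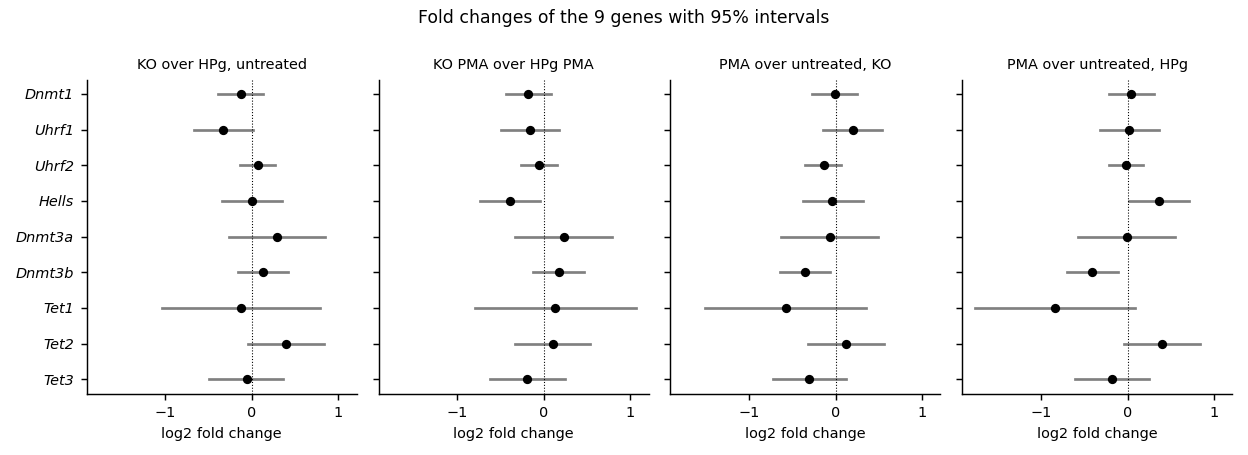
Log2 fold changes (x axis) of the 9 genes in 4 comparisons, as points with 95% intervals from the fit without block. The intervals of Dnmt3b lie below 0 in both PMA panels, at -0.65 to -0.07 in KO and -0.70 to -0.11 in HPg, those of Hells lie below 0 for KO PMA over HPg PMA and just above 0 for PMA in HPg, and the Tet1 intervals are the widest.

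Among the maintenance genes, Dnmt1, the copying methyltransferase, had 182.6, 226.7 and 223.8 CPM in PMA-treated KO libraries, against 207.6, 217.8 and 211.2 CPM in untreated KO libraries. In the HPg line it had 247.7, 206.8 and 262.3 CPM with PMA, against 249.4, 216.0 and 230.1 CPM without. The groups overlapped in all 4 comparisons of groups, and KO libraries were on average the lower ones. KO against HPg gave a log2 fold change of -0.13 (SE 0.13, 95% interval -0.39 to 0.13) without PMA and -0.18 (SE 0.13, interval -0.44 to 0.08) with PMA, and it was -0.01 for PMA in KO cells and 0.04 in HPg cells.

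Uhrf1, the reader that brings DNMT1 to hemimethylated DNA, had 187.0, 219.6 and 238.7 CPM in PMA-treated KO libraries, against 200.7, 171.0 and 191.8 CPM in untreated KO libraries. It had 241.4, 192.8 and 285.4 CPM in PMA-treated HPg libraries, against 274.9, 193.6 and 240.3 CPM in untreated HPg libraries. HPg library 2 lay within the range of the untreated KO libraries, and KO was below HPg in each of the 3 untreated pairs of the same number. Uhrf1 in KO against HPg had a log2 fold change of -0.33 (SE 0.17, interval -0.67 to 0.01, edgeR adjusted p = 0.419) without PMA and -0.16 with PMA (adjusted p = 0.689). Averaged over both PMA states it was -0.24 (adjusted p = 0.236), and without the 4 libraries numbered 2 it was -0.35 (adjusted p = 0.0487).

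Uhrf2, a paralog of Uhrf1 that does not replace it in maintenance, was the steadiest of the 9, between 115.2 and 143.3 CPM over all libraries. Its log2 fold changes ranged from -0.14 for PMA in KO cells to 0.07 for KO against HPg, with standard errors of 0.10. The ratio of Uhrf1 to Uhrf2 per kilobase was 3.45 ± 0.159 in KO PMA and 2.75 ± 0.326 in KO, against 3.70 ± 0.545 in HPg PMA and 3.60 ± 0.630 in HPg (SD, n = 3 each). The libraries of KO PMA lay above those of KO in this ratio, and the line groups overlapped.

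Hells, the remodeller also called LSH, had 59.1, 65.2 and 88.6 CPM in PMA-treated KO libraries, against 69.2, 74.6 and 74.5 CPM in untreated KO libraries. It had 110.5, 70.1 and 98.7 CPM in PMA-treated HPg libraries, against 73.2, 66.6 and 77.9 CPM in untreated HPg libraries. HPg PMA libraries 1 and 3 were the highest of the 12, and library 2 of that group lay among the rest. KO PMA against HPg PMA gave a log2 fold change of -0.39 (SE 0.18, edgeR adjusted p = 0.263), the member with an unadjusted p below 0.05 in that comparison. With chromosome medians removed and the block it was called, at -0.55 (adjusted p = 0.0351), where 13.4% of all genes were, and with chromosome medians removed alone it was not (adjusted p = 0.197). PMA in HPg cells gave 0.36 (SE 0.18, adjusted p = 0.326). For PMA in KO cells it was -0.04, and the difference of the PMA effects, tested as an interaction, was -0.39 (SE 0.25, adjusted p = 1).

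The promoters of the maintenance genes are shown because Dnmt1, Uhrf1 and Hells are known to be expressed in cycling cells. RefSeq windows of the 250 bases before each start site (build GRCm38.p6, whereas the counts were made on mm9) were searched on both strands for TTTGGCGC, TTTCGCGC, TTTCCCGC and TTTGCCGC, letters of the E2F type. Of 32851 windows, 611 (1.86%) held 1 of them, and among the windows of the 9 genes they were found in 1 of 3 of Dnmt1, 1 of 2 of Uhrf1 and the 1 of Hells. The windows of Uhrf2, Dnmt3a, Dnmt3b, Tet1, Tet2 and Tet3 held none of these letters. The 30 bases around each match, on the strand of the gene and with the matched letters in capitals, lie at chr9:20952824-20952853 (minus strand), chr17:56304117-56304146 (plus) and chr19:38930917-38930946 (plus).
Dnmt1: ggtttccgcgcGCGCGAAAaagccggggtc
Uhrf1: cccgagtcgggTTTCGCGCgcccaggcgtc
Hells: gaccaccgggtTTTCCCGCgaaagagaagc
The Dnmt1 stretch overlaps annotated exons of 2 transcripts, the Hells stretch an exon of 1, and the Uhrf1 stretch none. In Dnmt1 the match is the reverse complement of the Uhrf1 letters. The matches begin 219, 185 and 62 bases before the start sites, and whether a factor binds there was not tested.

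The whole Uhrf1 window, chr17:56304063-56304312 on the plus strand, is given because this gene had the highest level of the 9. Its matched letters are in capitals.
Uhrf1 window: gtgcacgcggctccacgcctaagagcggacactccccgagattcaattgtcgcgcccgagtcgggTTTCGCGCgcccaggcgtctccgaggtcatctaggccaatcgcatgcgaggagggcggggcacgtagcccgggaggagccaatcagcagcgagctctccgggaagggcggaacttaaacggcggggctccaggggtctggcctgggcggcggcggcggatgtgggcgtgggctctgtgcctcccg
It holds 30 CpG sites, at an observed to expected ratio of 1.00, whereas the median window holds 6 and 34% of windows exceed a ratio of 0.6. The windows with a match in Dnmt1 (0.89) and Hells (1.05) were CpG rich as well. So were windows without a match, such as that of Tet2 with 51 CpG sites and a ratio of 1.19, while the Tet3 window reached 0.56.

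Of the genes for new methylation, Dnmt3a, the main enzyme of differentiated cells, had 40.3, 77.1 and 59.4 CPM in PMA-treated KO libraries, against 44.3, 84.8 and 56.7 CPM in untreated KO libraries. It had 40.5, 60.9 and 49.2 CPM in PMA-treated HPg libraries, against 39.9, 66.8 and 44.8 CPM in untreated HPg libraries. Library 1 was the lowest and library 2 the highest in each of the 4 groups, and the spread within a group exceeded every difference between groups. KO against HPg gave a log2 fold change of 0.29 (SE 0.28, edgeR adjusted p = 0.714) without PMA and 0.23 (SE 0.28, adjusted p = 0.725) with PMA. Averaged over both PMA states it was 0.26 (SE 0.20, adjusted p = 0.455), and with the library number as a block 0.24 (SE 0.07, adjusted p = 0.017). KO was above HPg in 3 of 3 untreated pairs and in 2 of 3 PMA-treated pairs. The median of all tested genes on chromosome 12, which holds Dnmt3a, was 0.20 in the averaged comparison. With chromosome medians removed Dnmt3a was at 0.02 (adjusted p = 0.973), and at 0.01 with the block as well (adjusted p = 0.941). An antisense gene, Dnmt3aos, shares 133 of 16642 exon bases with Dnmt3a, and no source used here gives the strand setting of the counts.

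Dnmt3b, the other enzyme of new methylation, was the only one of the 9 whose PMA-treated libraries lay apart from the untreated ones in both lines. It had 4.65, 4.20 and 4.58 CPM in PMA-treated KO libraries, against 5.30, 6.05 and 5.88 CPM in untreated KO libraries. In the HPg line it had 4.09, 3.81 and 3.98 CPM with PMA, against 4.71, 5.07 and 5.98 CPM without. All PMA-treated libraries were thus below all untreated libraries of their line, a pattern shared by 4.11% of all tested genes (683). In KO cells alone 11.3% of all genes, and in HPg cells alone 10.3%, lay lower without overlap. Under PMA the log2 fold change was -0.36 in KO cells (SE 0.15, edgeR adjusted p = 0.251) and -0.41 in HPg cells (SE 0.15, adjusted p = 0.173). Neither passed the test, and Dnmt3b was the member with an unadjusted p below 0.05 in each. With the library number as a block the adjusted p was 0.098 in KO and 0.0618 in HPg cells. The interaction was 0.05 (SE 0.21, adjusted p = 1).

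Dnmt3b was also higher in KO PMA than in HPg PMA libraries without overlap, the only member to separate in that comparison, where 25.0% of all genes did and 12.5% in this direction. It was at 0.18 (SE 0.15, edgeR adjusted p = 0.582), and without PMA, where the lines overlapped, it was 0.13 (SE 0.15, adjusted p = 0.773). The median of all genes on chromosome 2, which holds Dnmt3b, was -0.15 in both, and with chromosome medians removed Dnmt3b was at 0.33 with PMA (adjusted p = 0.315) and 0.26 without (adjusted p = 0.603). Averaged, with the block as well, it was then called at 0.29 (adjusted p = 0.0384), where 20.7% of all genes were. Dnmt3b rested on 488 to 842 counts per library. Per kilobase, Dnmt3a made up 79.2 ± 6.13% of the summed level of Dnmt3a and Dnmt3b in KO PMA and 76.0 ± 4.73% in KO libraries, and 79.1 ± 3.95% in HPg PMA and 74.0 ± 5.48% in HPg libraries (SD, n = 3 each). Dnmt3l, the inactive cofactor of the germ line, had 0 to 6 counts per library and was not tested.

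Among the dioxygenases Tet1, the form of pluripotent and germ cells, had only 40 to 163 counts per library. It had 0.462, 0.437 and 0.460 CPM in PMA-treated KO libraries, against 0.520, 0.991 and 0.519 CPM in untreated KO libraries. It had 0.401, 0.508 and 0.326 CPM in PMA-treated HPg libraries, against 0.529, 1.37 and 0.326 CPM in untreated HPg libraries. The libraries numbered 2 of both untreated groups stood far above the others. PMA-treated KO libraries lay below the untreated ones without overlap, with a log2 fold change of -0.58 (SE 0.47, edgeR adjusted p = 0.651). In HPg cells it was -0.84 (SE 0.47, adjusted p = 0.401), and between the lines -0.13 without PMA and 0.13 with PMA, with intervals that reach from -1.04 to 0.79 and from -0.80 to 1.07. Tet1 made up 0.454% to 1.48% of the summed TET level per kilobase over the 12 libraries.

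Tet2, which lacks the CXXC domain of its relatives, had 21.9, 33.9 and 28.6 CPM in PMA-treated KO libraries, against 20.0, 33.0 and 24.7 CPM in untreated KO libraries. It had 25.1, 28.5 and 24.9 CPM in PMA-treated HPg libraries, against 15.1, 25.7 and 18.5 CPM in untreated HPg libraries. Library 2 was the highest of each group, the groups overlapped, and untreated HPg libraries 1 and 3 were the lowest of the 12. KO against HPg gave a log2 fold change of 0.39 (SE 0.22, edgeR adjusted p = 0.474) without PMA, and KO was higher in 3 of 3 pairs, by 0.41, 0.36 and 0.41. With the library number as a block it was 0.39 (SE 0.11, adjusted p = 0.035), and averaged over both PMA states it was 0.25 (adjusted p = 0.362), or 0.23 with the block (adjusted p = 0.0375). Both line calls of Tet2 were lost with chromosome medians removed and the block, at 0.30 (adjusted p = 0.12) without PMA and 0.16 (adjusted p = 0.152) averaged. With PMA the lines differed by 0.11 (adjusted p = 0.86). PMA in HPg cells gave 0.40 (SE 0.22, adjusted p = 0.395), and with the block 0.44 (SE 0.11, adjusted p = 0.0177), higher in 3 of 3 pairs, and that call held with chromosome medians removed as well (0.38, adjusted p = 0.0332). For PMA in KO cells it was 0.12 (adjusted p = 0.878), also higher in 3 of 3 pairs, and the interaction was -0.28 (SE 0.32, adjusted p = 1).

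Tet3, the form of the oocyte that is also present in many somatic cells, had 36.3, 56.8 and 44.1 CPM in PMA-treated KO libraries, against 43.9, 73.1 and 52.5 CPM in untreated KO libraries. It had 48.5, 56.9 and 50.9 CPM in PMA-treated HPg libraries, against 45.4, 72.7 and 59.0 CPM in untreated HPg libraries. Library 2 was again the highest and library 1 the lowest of every group, and the groups overlapped. For PMA the log2 fold change was -0.31 in KO cells (SE 0.22, edgeR adjusted p = 0.581), lower in 3 of 3 pairs, and -0.18 in HPg cells (SE 0.22, adjusted p = 0.747), lower in 2 of 3 pairs. Between the lines it was -0.06 without PMA (adjusted p = 0.939) and -0.19 with PMA (adjusted p = 0.706).

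The ratio of Tet3 to Tet2 within a library, from their levels per kilobase, separated all 4 groups. It was 1.68, 1.69 and 1.56 in PMA-treated KO libraries, against 2.22, 2.24 and 2.15 in untreated KO libraries. It was 1.95, 2.02 and 2.07 in PMA-treated HPg libraries, against 3.05, 2.86 and 3.21 in untreated HPg libraries. No library of one group reached another group, although each gene alone overlapped between all groups compared. On the log2 scale the mean ratio was 0.71 ± 0.06 in KO PMA and 1.14 ± 0.03 in KO, and 1.01 ± 0.04 in HPg PMA and 1.60 ± 0.09 in HPg (SD, n = 3 each). The difference was -0.42 for PMA in KO cells, -0.59 for PMA in HPg cells, -0.46 for KO against HPg and -0.29 for KO PMA against HPg PMA.

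The Tet3 to Tet2 ratio was chosen after its values were seen and is a description with no test. Among the 36 ratios of 2 members, it was the only 1 without overlap in all 4 comparisons. Of the others, 1 separated in 3 (Dnmt1 to Dnmt3b), 5 in 2, 7 in 1 and 22 in 0. The share over ratios of other tested genes is not given here, so whether this is particular to Tet3 and Tet2 was not tested. In the 4 comparisons, 18.5% to 25.0% of all tested genes separated on their own. Total counts and scaling factors cancel in such a ratio. The median of all genes on chromosome 6, which holds Tet3, was -0.15 for KO against HPg and -0.16 with PMA, while that of chromosome 3, which holds Tet2, was 0.09 and 0.05. With chromosome medians removed, the difference fell in size to -0.23 for KO against HPg and -0.08 for KO PMA against HPg PMA, but was -0.37 for PMA in KO and -0.52 for PMA in HPg cells. With GC content and length corrected it was -0.42, -0.46, -0.47 and -0.43 in the same order of comparisons.

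**Figure D3:**
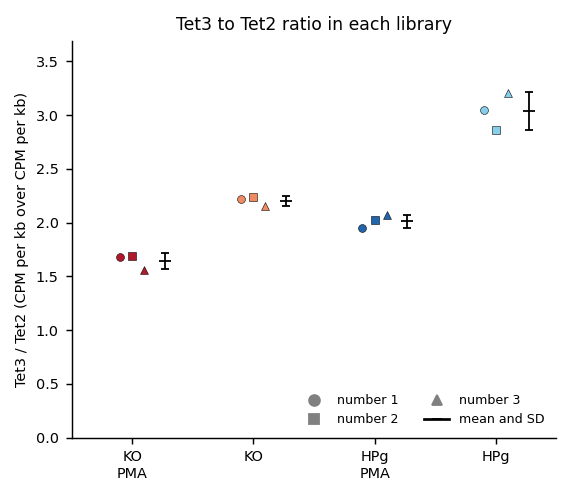
Ratio of Tet3 to Tet2 (y axis, CPM per kb over CPM per kb) in each library by group (x axis), with marker shapes for the library number and the mean ± SD (n = 3). The groups do not overlap: 1.56 to 1.69 in KO PMA, 2.15 to 2.24 in KO, 1.95 to 2.07 in HPg PMA and 2.86 to 3.21 in HPg.

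Part of the members varied with the library number in every group. Dnmt3a, Tet2 and Tet3 were each highest in library 2 of all 4 groups, as were 15.4% of all tested genes. Dnmt3a and Tet3 were lowest in library 1 of all 4 groups, and Tet2 in 3 of 4. Uhrf1 was lowest in library 2 in 3 of the 4 groups, the opposite end. As a measure of likeness, the root mean square difference of log2 CPM, centred per gene, was taken over the 12 libraries. It was 0.13 between Dnmt1 and Uhrf1, 0.17 between Dnmt1 and Hells and 0.21 between Uhrf1 and Hells, and 0.12 between Dnmt1 and Uhrf2, which both varied little. It was 0.20 between Dnmt3a and Tet2 and 0.25 between Dnmt3a and Tet3, but 0.51 between Dnmt3a and Uhrf1 and 0.72 between Uhrf1 and Tet1. Within a treatment or line, 0 of 9 members separated KO from HPg without PMA (18.5% of all genes did), 1 separated KO PMA from HPg PMA, 2 separated PMA-treated from untreated KO libraries (21.8%) and 1 did so in HPg libraries (22.7%), all named above. No member separated all 6 KO-line libraries from all 6 HPg-line libraries, as 5.13% of all genes did.

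**Figure D4:**
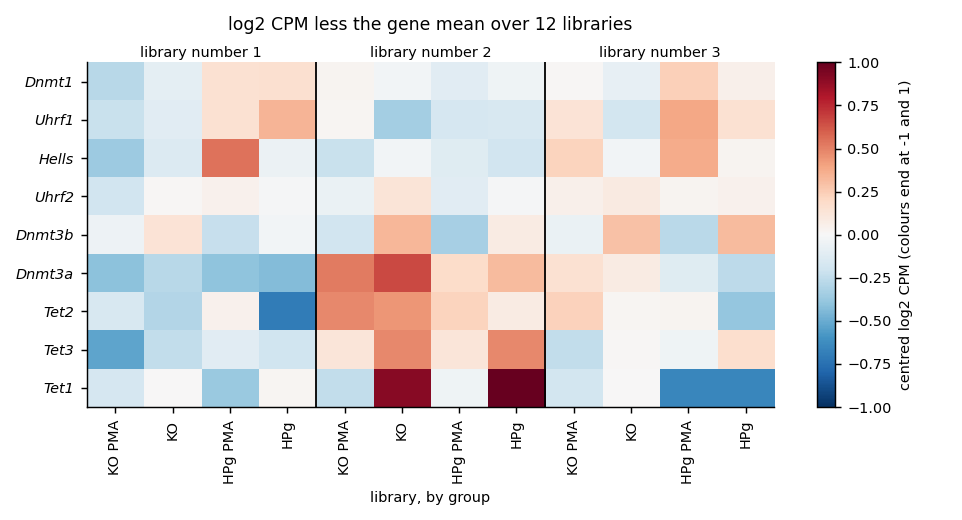
Log2 CPM of the 9 genes less each gene's mean over the 12 libraries (colours, ending at -1 and 1), with genes as rows and libraries as columns sorted by library number and group. Dnmt3a, Tet2 and Tet3 are above their means in the 4 libraries numbered 2 and mostly below them in those numbered 1, while Tet1 is high in untreated KO and HPg libraries 2.

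Over all tested genes, the profiles nearest to Dnmt1 were those of Kri1 and Nsd2, at a root mean square difference of 0.06 each, against an SD of 0.14 of Dnmt1 itself. Nearest to Uhrf1 (SD 0.23) were Trip13 at 0.07 and Mcm3 at 0.08, and Mcm3 encodes a subunit of the replicative helicase. Nearest to Hells (SD 0.26) were Ddx46 and Kif15 at 0.08 each, and nearest to Uhrf2 (SD 0.09) were Snx27 at 0.05 and Sil1 at 0.06. Amot at 0.08 and Fbn1, which encodes the matrix protein fibrillin, at 0.10 were nearest to Dnmt3a (SD 0.38), and Acsf2 at 0.07 and Jade2 at 0.08 to Dnmt3b (SD 0.23). For the dioxygenases these were Btbd7 and Daam1 at 0.10 each for Tet2 (SD 0.34), Rai1 and Clec16a at 0.06 each for Tet3 (SD 0.30), and Hcrtr1 at 0.22 and Ankrd6 at 0.23 for Tet1 (SD 0.59).

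Around the 9 genes, the methyl donor cycle supplies S-adenosylmethionine, and 17 of its 18 listed genes were tested. Under PMA 2 of 17 rose in KO cells and 2 of 17 in HPg cells, the same 2 genes, and none fell, where 2.81% and 2.53% of all genes rose, with median log2 fold changes of 0.10 and 0.12, beside -0.02 over all genes in each line. Mat2a, which encodes the catalytic subunit of the synthase of S-adenosylmethionine, had 212.4, 311.3 and 213.1 CPM in PMA-treated KO libraries, against 88.7, 109.9 and 92.0 CPM in untreated KO libraries. It had 176.6, 327.2 and 172.5 CPM in PMA-treated HPg libraries, against 91.2, 108.9 and 110.1 CPM in untreated HPg libraries. All PMA-treated libraries stood above the untreated ones in both lines, and library 2 was the highest under PMA. Mat2a had a log2 fold change of 1.34 in KO cells (SE 0.24, edgeR adjusted p = 0.00786), which held without each of the 6 libraries (adjusted p 0.0135 to 0.0477). In HPg cells it was 1.12 (SE 0.24, adjusted p = 0.0262), which was lost without HPg library 1, 2 or 3 or HPg PMA library 2 (0.76 to 1.18, adjusted p 0.055 to 0.0857), and with only the compared groups in the fit (1.13, adjusted p = 0.088). Mat2a shares 508 exon bases with Particl on the opposite strand.

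Shmt1, the cytosolic serine hydroxymethyltransferase that feeds the folate cycle, had 29.4, 39.2 and 41.2 CPM in PMA-treated KO libraries, against 18.2, 20.6 and 23.5 CPM in untreated KO libraries. It had 27.6, 34.3 and 36.3 CPM in PMA-treated HPg libraries, against 20.4, 17.3 and 21.1 CPM in untreated HPg libraries. The groups did not overlap in either line. Shmt1 was at 0.82 in KO cells on the log2 scale (SE 0.16, edgeR adjusted p = 0.013), lost without KO library 1 or KO PMA library 2 or 3 (adjusted p 0.0541 to 0.064) or all libraries numbered 2 (0.76, adjusted p = 0.0549). It was 0.74 in HPg cells (SE 0.16, adjusted p = 0.0273), lost without any HPg library or HPg PMA library 2 or 3 (adjusted p 0.0642 to 0.114), and under 2 of 13 other settings (adjusted p 0.061 and 0.122). Shmt1 shares 184 exon bases with Smcr8 on the opposite strand. Between the lines, 1 of 17 genes of the cycle fell in KO cells with both PMA states averaged, where 4.85% of all genes fell. This was Slc19a1, the reduced folate carrier, at -0.34 (SE 0.10, adjusted p = 0.0499), lost without 9 of the 12 libraries, at -0.30 to -0.40 over all 12, and under 5 of 12 other settings. It lies on chromosome 10, where the median of all genes was -0.27, and with chromosome medians removed it was -0.10 (adjusted p = 0.598). With the library number as a block, 1 gene of the cycle was higher and 5 were lower in that comparison, where 15.2% of all genes were higher and 14.1% lower. Under PMA 3 of 17 were higher in each line in that fit, where 6.79% of all genes were in KO and 8.62% in HPg cells.

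**Figure D5:**
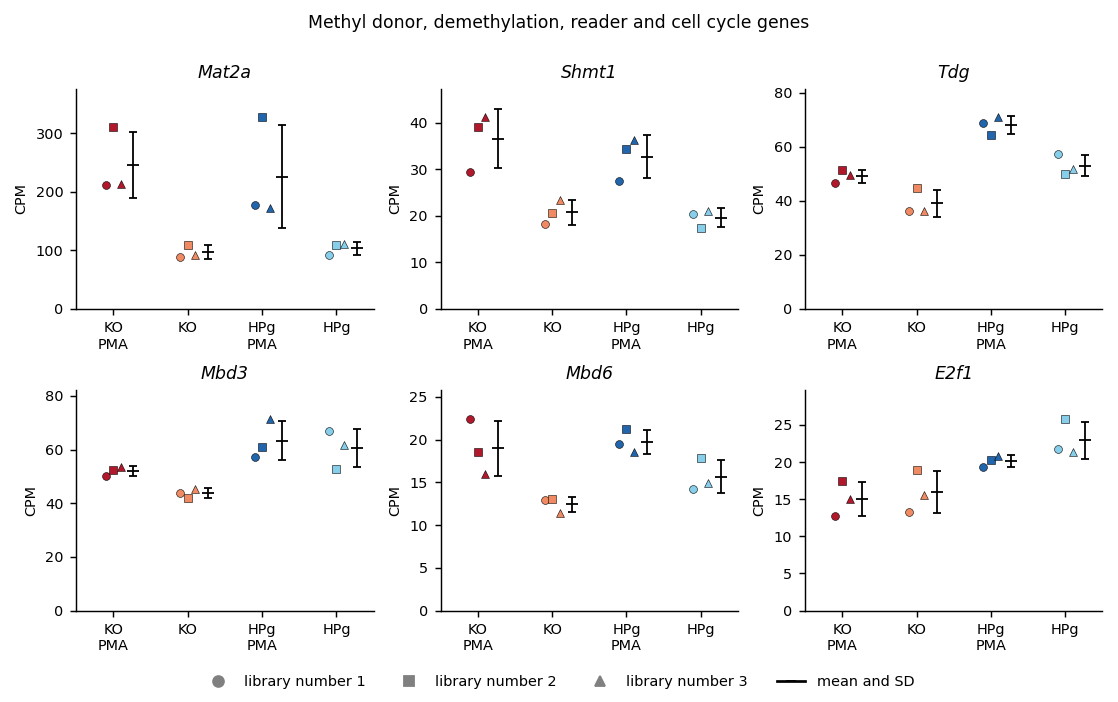
Expression (y axis, CPM) of 6 genes of the surrounding pathways by group (x axis), with marker shapes for the library number and the mean ± SD (n = 3). Mat2a and Shmt1 lie higher under PMA in both lines without overlap, Tdg and E2f1 lie lower in KO than in HPg libraries of the same treatment, and Mbd6 lies higher under PMA in both lines.

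Of 19 listed partners of active demethylation, 15 were tested, and 1 was lower in KO PMA than in HPg PMA libraries and in the averaged line comparison, with none higher, where 1.18% and 4.85% of all genes were lower. This was Tdg, the glycosylase that removes oxidised methylcytosine, with 46.5, 51.3 and 49.4 CPM in KO PMA against 68.8, 64.4 and 70.9 CPM in HPg PMA libraries. Without PMA it had 36.3, 44.6 and 36.1 CPM in KO against 57.3, 49.8 and 51.7 CPM in HPg libraries. All KO libraries were lower than the HPg libraries of the same treatment. Tdg was at -0.46 on the log2 scale averaged over both PMA states (SE 0.08, edgeR adjusted p = 0.00445), and it held without each of the 12 libraries (adjusted p 0.00221 to 0.0189). With PMA it was -0.47 (SE 0.11, adjusted p = 0.0487), lost without any 1 of the 6 libraries (adjusted p 0.0519 to 0.166) and under 5 of 13 other settings. Tdg lies on chromosome 10, and with chromosome medians removed the averaged value was -0.21 (adjusted p = 0.16) and that with PMA -0.23 (adjusted p = 0.375). With the block as well, the value with PMA was not called (adjusted p = 0.143). The averaged one stayed called in that fit, where 20.7% of all genes were, and was lost in 1 of 12 other settings. With the block 2 of 15 partners were higher and 3 lower in the averaged comparison, where 29.3% of all genes were called. Under PMA Tdg had log2 fold changes of 0.33 in KO cells (adjusted p = 0.14) and 0.36 in HPg cells (adjusted p = 0.107), and with the library number as a block both were called (adjusted p = 0.0469 and 0.03). Tdg shares 367 exon bases with Glt8d2 on the opposite strand and has a processed copy, Tdg-ps, so its counts are uncertain.

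All 10 genes of a list named methyl-CpG readers were tested, and whether the product of each binds methylated CpG was not. Of the 10, 1 was lower in the averaged line comparison and 1 rose under PMA in KO cells, where 4.85% of all genes were lower and 2.81% rose. Mbd3, a subunit of the NuRD complex, had 50.1, 52.3 and 53.6 CPM in KO PMA and 43.9, 41.9 and 45.5 CPM in KO libraries, against 57.4, 60.9 and 71.4 CPM in HPg PMA and 66.9, 52.9 and 61.8 CPM in HPg libraries. KO libraries were lower than HPg libraries of the same treatment without overlap, at a log2 fold change of -0.37 averaged (SE 0.08, edgeR adjusted p = 0.015). It also lies on chromosome 10, and with chromosome medians removed it was -0.14 (adjusted p = 0.386). Mbd6 had 22.4, 18.5 and 16.0 CPM in KO PMA against 12.9, 13.0 and 11.4 CPM in KO libraries, and 19.5, 21.2 and 18.5 CPM in HPg PMA against 14.2, 17.9 and 14.9 CPM in HPg libraries. Its log2 fold change in KO cells was 0.61 (SE 0.14, adjusted p = 0.0332), lost without any KO library or KO PMA library 1 or 2 (0.48 to 0.65, adjusted p 0.065 to 0.162) and under 4 of 13 other settings (adjusted p 0.0564 to 0.0921). With the library number as a block, 1 of the 10 was higher and 1 lower under PMA in each line. That fit called 13.4% of all genes in KO and 14.8% in HPg cells. The lower one was Mbd4, a glycosylase that binds methylated CpG, called only with the block, at -0.46 in KO (edgeR adjusted p = 0.0268) and -0.52 in HPg cells (adjusted p = 0.0138). The higher one was Mbd6 in KO cells, at 0.61 (adjusted p = 0.00343), and Mbd2 in HPg cells, at 0.41 (adjusted p = 0.0111).

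Of 12 other DNMT genes and partners 10 were tested, and 0 were called in any comparison by edgeR, where 0% to 10.4% of all genes were. An unadjusted p below 0.05 was found for 0 to 5 of the 10, and for 328 to 4320 of all 16630 genes. The edgeR adjusted p values for Zfp57, Trim28 and Cdca7 were 0.0802, 0.186 and 0.132 averaged. With the library number as a block, Zfp57, a zinc finger protein that keeps imprints methylated, was higher in KO cells, at 0.62 without PMA (edgeR adjusted p = 0.0434), 0.86 with PMA (adjusted p = 0.00676) and 0.74 averaged (adjusted p = 0.00102). Trim28, its corepressor, was at 0.39 with PMA (adjusted p = 0.0155) and 0.26 averaged (adjusted p = 0.014) in the same fit. Cdca7, a partner of HELLS, was at -0.34 averaged (adjusted p = 0.0133). These 3 of 10 called averaged stand beside 29.3% of all genes called in that fit. Their values with chromosome medians removed are not given here, so a shift shared with their chromosomes cannot be told apart.

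Since maintenance methylation follows replication, 24 genes of replication and S phase were listed, of which 23 were tested. The other, Cdt1, had no count in any library, and whether its reads were counted is not known. Under PMA edgeR called 0 in either line, where 4.44% of all genes were called in KO and 3.45% in HPg cells. An unadjusted p below 0.05 was found for 3 in KO and 4 in HPg cells, and for 2639 and 2889 of all 16630 genes. With the block 2 were higher in each line and 1 lower in KO cells, where 13.4% of all genes were called in KO and 14.8% in HPg cells. In KO against HPg, 22 of 23 lay below 0 without PMA, with PMA and averaged, at medians of -0.23, -0.21 and -0.23, beside 0.01 over all genes in each. Dnmt1 and Uhrf1 lay below 0 in these comparisons as well, whereas Hells was at 0.00 without PMA. With the library number as a block 5, 6 and 9 were lower without PMA, with PMA and averaged, where 5.44%, 9.09% and 14.1% of all genes were. In the fit without block 2 of the 23 fell, both in the averaged comparison, where 4.85% of all genes fell.

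These 2 were the transcription factor genes E2f1 and E2f2, which drive S phase genes. E2f1 had 12.7, 17.4 and 15.0 CPM in KO PMA and 13.3, 18.9 and 15.6 CPM in KO libraries, against 19.3, 20.3 and 20.8 CPM in HPg PMA and 21.7, 25.8 and 21.3 CPM in HPg libraries. All 6 KO-line libraries lay below all 6 HPg-line libraries, at a log2 fold change of -0.47 (SE 0.11, edgeR adjusted p = 0.0186), lost without KO library 3 (-0.47, adjusted p = 0.0515). E2f2 was at -0.67 (SE 0.17, adjusted p = 0.025), lost without 8 of the 12 libraries, all but those numbered 2 (-0.60 to -0.69, adjusted p 0.0501 to 0.0696). With chromosome medians removed E2f1 was at -0.33 (adjusted p = 0.112) and E2f2 at -0.55 (adjusted p = 0.0753). Of 12 other settings this was the only 1 that lost either call. With chromosome medians removed and the block both stayed called, where 20.7% of all genes were.

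Germline genes are commonly silenced by promoter methylation, and 7 of the 19 listed genes found in the table were expressed enough to be tested. In the averaged comparison 1 of 7 was higher in KO cells, where 5.57% of all genes were. Ddx4, the germ cell helicase Vasa, was higher in KO cells at 1.74 to 2.44 CPM with PMA and 1.75 to 2.22 CPM without, against 0.854 to 1.35 CPM in HPg PMA and 0.455 to 1.24 CPM in HPg libraries. All 6 KO-line libraries lay above all 6 HPg-line libraries, at a log2 fold change of 1.14 averaged (SE 0.24, edgeR adjusted p = 0.0113), which held without each of the 12 libraries (0.98 to 1.34). Piwil2, of the piRNA pathway, rose under PMA in HPg cells, with 0.453, 1.03 and 0.783 CPM in HPg PMA against 0.308, 0.210 and 0.296 CPM in HPg libraries. Its log2 fold change was 1.48 (SE 0.36, adjusted p = 0.0444), lost without any HPg library or HPg PMA library 2 or 3 (1.19 to 1.58, adjusted p 0.0898 to 0.154). It was also lost under 6 of 13 other settings (adjusted p 0.054 to 0.198), with the lowest value, 1.03, without the libraries numbered 2. In KO cells it was 1.09 (adjusted p = 0.113). Methylation itself was not measured in these libraries.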

How the data were processed

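RNA-seq of 12 libraries (4 groups of 3) was read from the deposited table of raw read counts per gene, which the authors did not normalize, as its whole numbers show. The submitters' processing notes name build mm9, STAR 2.5.0a, cutadapt 1.11, Subread and featureCounts 1.4.6-p3. No source used here gives the annotation release or strand setting. GENCODE M21 and RefSeq gave symbols, exon length and promoters.

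Counts were filtered with filterByExpr (minimum count 10, minimum total 15), scaled by TMM and tested with the edgeR 4.0.16 quasi-likelihood F-test (R 4.3.3), all 12 libraries in 1 fit with a coefficient per group. The fit was also run on simulated counts of independent libraries with the same dispersion for every gene. These held no effect of library number or chromosome, so that run does not cover such effects. P-values were adjusted by Benjamini-Hochberg over all genes, and called means an adjusted p below 0.05. DESeq2 1.42.0, other scalings and filters, GC content and length correction, chromosome medians removed, libraries left out, and the replicate number as a block were alternatives. The members and lists were chosen with earlier results of these data known. Named were all 9 members, Cbx3, the 2 genes nearest to each member and all genes of the lists called in the fit without block. Per list and comparison, up to 4 genes called in either fit, by p, could be named. Of those called only with the block, not all are named.

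Numbers in the labels pair the samples: deviations from group means correlated at 0.159 to 0.558 in the 18 pairs of the same number, against -0.517 to 0.163 in the 36 others, though the labels do not say what a number shares. Libraries of a group differed beyond sampling noise (chi-square per degree of freedom 104.1 to 689.2).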

Additional observations from a re-analysis of the deposited data

How the results depend on the processing

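The count of members called stayed at 0 in all 6 comparisons when any 1 library was left out (lowest 0, highest 0). The replicate block raised it to 1 for KO against HPg without PMA, 2 averaged and 1 for PMA in HPg cells, and changed no other count. With GC content and length corrected and the block, it was 1 for KO against HPg, 2 for KO PMA against HPg PMA, 4 averaged, 1 for PMA in KO and 1 for PMA in HPg cells, where 17.7%, 21.5%, 35.2%, 18.4% and 13.7% of all genes were called. Those were Tet2 in each, Tet3 with PMA and averaged, and Dnmt3a and Uhrf1 averaged. Without the block this correction gave 1 averaged (Tet2, beside 14.3% of all genes). With chromosome medians removed and the block it was 1 for KO PMA against HPg PMA (Hells, beside 13.4% of all genes), 1 averaged (Dnmt3b, 20.7%) and 1 for PMA in HPg cells (Tet2, 15.2%), and without the libraries numbered 2 it was 1 averaged (Uhrf1, 18.2%). The causes were not tested.

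Of the fold changes of members, 610 kept sign and side of the threshold under settings other than leaving out 1 library, 18 became called and 50 changed sign. With chromosome medians removed, without and with the block, Uhrf2 was at -0.03 and -0.03, Hells at -0.09 and -0.08, Tet1 at 0.10 and 0.21 and Tet3 at 0.07 and 0.07 for KO against HPg. Averaged, Uhrf2 was at -0.12 and -0.12 and Tet3 at 0.02 and 0.01, for PMA in HPg cells Uhrf2 was at 0.01 and 0.01, and Dnmt3a had an interaction of 0.00 without the block. With GC content and length corrected, without and with the block, Hells was at -0.10 and -0.09 for KO against HPg, Uhrf2 at 0.02 and 0.02 with PMA, Dnmt3a at 0.04 and 0.03 and Hells at 0.05 and 0.06 for PMA in KO cells, Dnmt3a at 0.02 and 0.02 for PMA in HPg cells, and the interaction was 0.01 and 0.01 for Dnmt3a and -0.06 and -0.07 for Dnmt3b. Without the libraries numbered 2, Hells was at -0.07 and Tet1 at 0.28 for KO against HPg, Uhrf2 at -0.03 averaged, Hells at 0.04 for PMA in KO, and Dnmt3a at 0.08 and Uhrf2 at 0.02 for PMA in HPg cells. With library size only, Uhrf2 was at -0.02 and Tet1 at -0.02 averaged, Tet2 at -0.01 for PMA in KO, Uhrf1 at -0.02 for PMA in HPg cells, and Dnmt3b had an interaction of -0.04. Upper-quartile factors gave Uhrf2 0.01 with PMA, and Dnmt1 -0.03 and Uhrf1 -0.06 for PMA in HPg cells. With no filter Hells was at -0.01 for KO against HPg, Uhrf2 and Tet1 at -0.01 averaged and Dnmt3a at 0.00 for PMA in HPg cells. DESeq2 and median-of-ratios factors gave Tet1 0.00 averaged, and the block alone gave Dnmt3a 0.01 for PMA in HPg cells. Cbx3 for KO against HPg was at 0.05 and 0.06 with chromosome medians removed, without and with the block, and Adk averaged at -0.01 with both.

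Leaving out 1 library, 380 member values kept sign and side and 52 changed sign. The ranges of those for KO against HPg were -0.01 to 0.55 for Dnmt3a, -0.05 to 0.05 for Hells, -0.52 to 0.66 for Tet1 and -0.30 to 0.11 for Tet3. With PMA they were -0.01 to 0.44 for Dnmt3a, -0.01 to 0.31 for Tet1 and -0.05 to 0.26 for Tet2, and averaged -0.03 to 0.03 for Uhrf2 and -0.20 to 0.40 for Tet1. For PMA in KO cells they were -0.06 to 0.09 for Dnmt1, -0.31 to 0.23 for Dnmt3a, -0.22 to 0.09 for Hells and -0.04 to 0.34 for Tet2. For PMA in HPg cells they were -0.02 to 0.14 for Dnmt1, -0.17 to 0.25 for Dnmt3a, -0.12 to 0.16 for Uhrf1 and -0.04 to 0.03 for Uhrf2. For the interaction they were -0.14 to 0.05 for Dnmt1, -0.32 to 0.23 for Dnmt3a, -0.06 to 0.12 for Dnmt3b, -0.53 to 0.65 for Tet1 and -0.31 to 0.11 for Tet3.

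The Tet3 to Tet2 ratio, whose alternatives were chosen after seeing the data, kept its sign in all of them. Over all genes the counts higher and lower were 134 and 85 for KO against HPg, but 1178 and 905 with the block and 467 and 308 with DESeq2, and 4 and 8 with only those 2 groups in the fit. Without HPg library 3 they were 27 and 22, without KO library 3 33 and 13, and without HPg library 2 239 and 90. Without KO library 3 they were 527 and 382 averaged and 236 and 59 for PMA in KO cells, and for PMA in HPg cells 215 and 29 without HPg library 3 and 197 and 25 with only the compared groups in the fit, so the share of genes called depends on the fit. With library size only the median of all genes moved to -0.14 for PMA in KO cells, where 307 were higher and 424 lower, against 468 and 271 with TMM factors. With upper-quartile factors the counts were 270 and 129 for KO PMA against HPg PMA (TMM 215 and 196), 1159 and 563 averaged (TMM 926 and 807), and 316 and 193 for PMA in HPg cells (TMM 421 and 153).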
